A study of Homo sapiens with 15 samples.

Results

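The 39 protein-coding HOX genes, taken by symbol from the 4 HOX clusters, were examined in RNA-seq read counts of human cells that carried the fusion YAP-MAML2 in condensed or diffuse form. All 39 were among the 61533 genes of the count table, 11 in cluster A, 10 in cluster B, 9 in cluster C and 9 in cluster D, and 36 of them passed the filter on low counts that 18391 genes passed in all. HOX genes encode homeodomain transcription factors that tell cells where they lie along the head-to-tail axis of the embryo. Within a cluster the genes stand in the order in which they act along the body, with low-numbered paralog groups at the head end and high-numbered groups at the tail end, the limbs and the urogenital tract, and cells keep the set of HOX genes that they switched on in the embryo through the opposed Polycomb and Trithorax chromatin systems. HOX proteins bind DNA together with TALE homeodomain partners of the PBX, MEIS and PREP families.

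The series holds 15 libraries of polyA RNA from HEK293 cells, a human line of embryonic kidney origin that the labels call HEK293T, with 3 libraries in each of 5 groups. YAP-MAML2 joins the TEAD-binding part of YAP to the transactivation domain of MAML2. In SPARK-OFF cells the fusion was tagged with FKBP and mCherry was tagged with Frb, so that rapamycin brought mCherry onto the fusion and dissolved its condensates. SPARK-OFF cells treated for 5 h with DMSO therefore held condensed YAP-MAML2, and SPARK-OFF cells treated for 5 h with rapamycin held diffuse YAP-MAML2. The no-mCherry control cells carried the tagged fusion without mCherry, so that rapamycin left the condensates in place, and were likewise given DMSO or rapamycin. The eGFP cells lacked the fusion and are labelled as the mock-treated baseline with no duration, so a difference between them and a fusion line cannot be told apart from DMSO, from rapamycin or from the making of the line. For the no-mCherry DMSO group the title and treatment name DMSO while the description names rapamycin, and the title was followed. The sources do not say whether the 3 libraries of a group came from separate cultures, so p-values measure the spread between libraries, which may be technical.

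The libraries held 14720387 to 24797509 counted reads, with a median of 17631701. MAML2, whose reads include those of the fusion, was at 2.77 to 4.30 CPM, or counts scaled to a common library total, in eGFP cells, 395 to 441 in condensed cells, 503 to 562 in diffuse cells, 199 to 236 in no-mCherry DMSO cells and 230.0 to 260.4 in no-mCherry rapamycin cells. The lines thus differed in fusion RNA as well as in mCherry. The SPARK-OFF cells had a higher level of this RNA with rapamycin than with DMSO, without overlap. Protein is not measured in these data, while the paper reports by Western blot that YAP-MAML2 protein was unchanged on dissolution. The 7 markers of the HEK293 background (among them VIM, NEFM and SALL1) summed to 507 to 549 CPM in eGFP cells, 276 to 294 in condensed, 306 to 311 in diffuse, 334 to 411 in no-mCherry DMSO and 420 to 451 in no-mCherry rapamycin cells. PTPRC, CD3E, PECAM1 and ALB, which mark blood, endothelium and hepatocytes, stayed at or under 0.461 CPM in every library. In bulk RNA fewer cells with a transcript and less transcript per cell cannot be told apart.

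One library stood apart for these genes before any group was compared. No-mCherry DMSO replicate 3 was the lowest of its group in 35 of 36 HOX genes, against 42.7% of all genes tested, and the lowest of all 15 libraries in 14 of them. Its 39 HOX genes summed to 953 CPM, whereas the other libraries of its group summed to 1302 and 1279 CPM. Its mean correlation of log CPM with its own group was 0.987, against 0.990 to 0.993 in the other libraries. Beside the main counts and many of the values that rest on this group, those without that library are therefore given. The remaining values that rest on this group include that library.

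The clusters lie on 4 chromosomes in hg38, as annotated in GENCODE v44. Cluster A spans 107.1 kb at chr7:27092993-27200091, cluster B 200.2 kb at chr17:48528526-48728750, cluster C 117.2 kb at chr12:53938831-54056030 and cluster D 98.2 kb at chr2:176092721-176190907. The clusters are crowded with noncoding and read-through transcripts: 16 of the 39 genes shared exon bases with another gene on the same strand, 20 with a gene on the opposite strand and 14 with none. Whether reads were counted by strand is not given in the sources used here, so levels of genes that share much exon sequence are uncertain. The shares of exon bases were highest for HOXC5 (67.3%), HOXA7 (62.5%), HOXD1 (60.1%), HOXA4 (47.8%) and HOXA6 (40.1%). HOXC11, HOXC12, HOXD9 and HOXD13 shared no exon base with another gene.

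Promoter sequences are given for genes of the tail-end, or posterior, groups that were called in the comparisons below. RefSeq windows of 300 bases around the transcript start (GRCh38.p14, 250 bases before it and 50 after) were at hand for 20 HOX genes in 27 windows. The letters GGAATG, the core that TEAD factors recognise, were found on either strand in 8 of the 27 windows (29.6%), those of HOXA3, HOXA10, HOXC4, HOXC5, HOXD4, HOXD8, HOXD10 and HOXD13, against 14.03% of 35116 windows of the same length. HOXC4 and HOXC5 have the same window, which was counted for each. The letters TGATNNAT, a joint PBX and HOX site, were found in 3 windows (11.1%), those of HOXA2, HOXB1 and HOXD11, against 7.40% of all windows. A match is a run of letters and not a measured binding site. The 250 bases before the start are shown for 3 cluster D genes and for HOXA13, all of which were lower in condensed than in eGFP cells, with a TEAD core or PBX-HOX match in capitals. HOXD10 (chr2:176116528-176116777, + strand) has the core 11 bases before the start and HOXD13 (chr2:176092471-176092720, + strand) 237 bases before it. HOXD11 (chr2:176107030-176107279, + strand) has the PBX-HOX letters, here on the opposite strand, 67 bases before the start, and HOXA13 (chr7:27200092-27200341, - strand) has neither. The HOXD10 and HOXD11 windows lie in introns of longer transcripts of the same genes, the HOXD13 window lies outside annotated genes, and the HOXA13 window lies within the span of the noncoding gene HOTTIP and outside its exons.
HOXD10: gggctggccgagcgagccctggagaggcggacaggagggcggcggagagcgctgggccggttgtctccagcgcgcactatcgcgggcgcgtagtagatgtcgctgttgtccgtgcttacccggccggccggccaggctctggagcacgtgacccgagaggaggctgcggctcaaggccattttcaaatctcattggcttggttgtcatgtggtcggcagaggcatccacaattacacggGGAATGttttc
HOXD13: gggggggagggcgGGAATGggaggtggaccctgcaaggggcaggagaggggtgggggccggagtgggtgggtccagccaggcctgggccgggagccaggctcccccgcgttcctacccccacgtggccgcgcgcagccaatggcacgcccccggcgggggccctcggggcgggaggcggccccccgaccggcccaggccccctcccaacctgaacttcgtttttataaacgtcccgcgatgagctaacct
HOXD11: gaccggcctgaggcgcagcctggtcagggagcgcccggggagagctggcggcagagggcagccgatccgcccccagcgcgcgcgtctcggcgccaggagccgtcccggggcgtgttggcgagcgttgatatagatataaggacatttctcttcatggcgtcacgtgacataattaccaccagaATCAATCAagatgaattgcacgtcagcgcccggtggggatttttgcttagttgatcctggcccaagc
HOXA13: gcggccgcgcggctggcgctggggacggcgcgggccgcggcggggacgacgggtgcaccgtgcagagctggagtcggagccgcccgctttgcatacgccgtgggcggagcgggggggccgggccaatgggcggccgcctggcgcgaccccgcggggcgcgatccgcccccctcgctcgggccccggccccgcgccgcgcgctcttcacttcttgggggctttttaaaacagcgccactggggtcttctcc

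The eGFP cells expressed HOX genes of all 4 clusters, most strongly those of the posterior groups. Per kilobase of exon, a scale on which genes can be compared, the mean eGFP level was highest for HOXD13, which patterns digits and the urogenital tract, at 69.5 ± 3.496 CPM per kb (SD, n = 3), followed by HOXB9, a gene of the thoracic skeleton, at 65.8 ± 6.67. These overlapped each other. HOXA5, needed for lung and cervical vertebrae, came next at 49.4 ± 2.39 and HOXD10, a gene of the lumbar cord and limb, at 28.2 ± 0.895, and neither overlapped its neighbours in the order. Further down the order most genes could not be ranked, since 30 of the 38 neighbouring pairs overlapped in their 3 libraries. The median was 3.06 CPM per kb for paralog groups 1 to 3, 7.64 for groups 4 to 8 and 12.9 for groups 9 to 13, while the cluster medians lay between 6.48 in cluster D and 8.72 in cluster C.

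**Figure D1:**
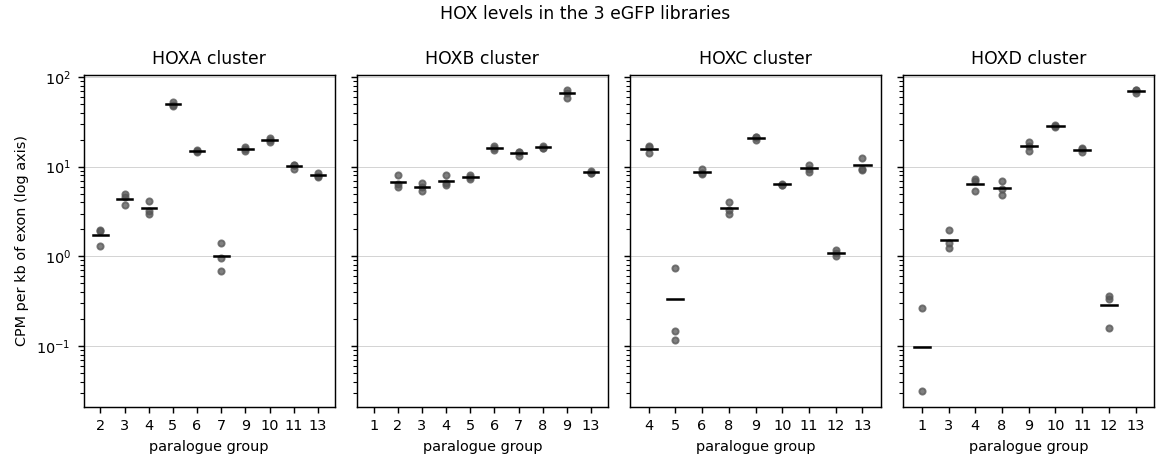
Mean level of 38 HOX genes in eGFP cells, in CPM per kb of exon on a log axis, by position in each cluster, with points for the 3 libraries. Levels were highest for HOXD13 at 69.5 and HOXB9 at 65.8 CPM per kb, and libraries at 0 (HOXB1, and 1 library of HOXD1) are not drawn because the axis is logarithmic.

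HOXB1 and HOXD1, at the head end, and HOXC5, of paralog group 5, did not pass the filter. HOXB1, a hindbrain gene, had 0 to 2 counts per library and 4 over all 15 libraries. HOXC5 had 0 to 18 counts and HOXD1 0 to 11. HOXC5 and HOXD1 share 67.3% and 60.1% of their exon bases with other genes, so their low counts are uncertain. Of the 36 genes tested, 26 were called in at least 1 of the 9 comparisons made (all genes 43%), many of which share libraries, and 10 in none: HOXA3, HOXA6, HOXA7, HOXA9, HOXC8, HOXC10, HOXC13, HOXD3, HOXD4 and HOXD12. Among these were well-measured genes, such as HOXA9, a regulator of blood stem cells and of leukaemia, at 43.96 to 55.7 CPM over the 15 libraries, and HOXC13, needed for hair and nails, at 21.4 to 29.4 CPM. For HOXA9 the fitted log2 fold changes of the 9 comparisons lay between -0.10 and 0.14. HOXD12, at 0.292 to 1.57 CPM, was too low for its fold changes of -1.61 to 1.27 to be told from 0.

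**Figure D2:**
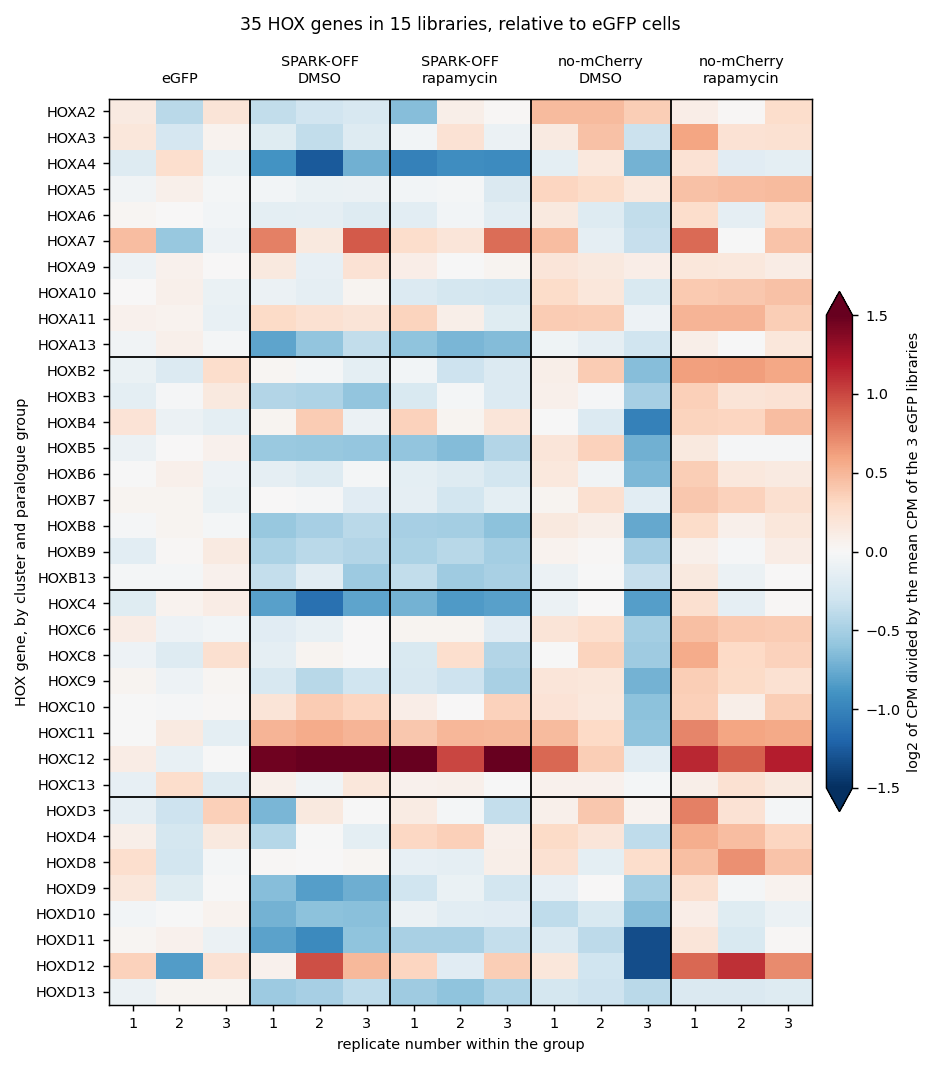
Log2 level of 35 of the 36 tested HOX genes in each of the 15 libraries relative to the gene's mean over the 3 eGFP libraries, genes ordered by cluster and paralog group, with colours clipped at 1.5 above and below 0. HOXC12 and HOXC11 are above 0 in all condensed and diffuse libraries, and the column of no-mCherry DMSO replicate 3 is the lowest of its group for 34 of the 35 genes drawn.

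The first question was how cells with condensed YAP-MAML2 differ from cells without the fusion. In condensed cells 13 HOX genes were lower than in eGFP cells and 2 were higher, of 36 tested, at an adjusted p under 0.05 in edgeR's quasi-likelihood test with Benjamini-Hochberg adjustment over all genes tested, the rule used for every call here. Of all genes tested, 14.1% were lower and 13% higher, so the share of HOX genes that fell (36.1%) stood above the share of all genes and the share that rose (5.56%) below it. The 36 genes had a median of -0.15 on the log2 scale, against 0.0045 for all genes, and 26 of the 36 values were below 0. In 15 HOX genes every condensed library was below every eGFP library and in 4 every one was above, against 20.4% and 20.2% of all genes.

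The genes that fell came from all clusters, among them HOXA4, HOXA13, HOXB3, HOXB5, HOXB8, HOXB9, HOXB13, HOXC4, HOXD9, HOXD10, HOXD11 and HOXD13. By cluster, 3 of 11 tested A genes, 5 of 9 B genes, 1 of 8 C genes and 4 of 8 D genes were lower, with median log2 fold changes of -0.16, -0.34, 0.02 and -0.33. By body position, 2 of 6 tested genes of groups 1 to 3, 4 of 14 of groups 4 to 8 and 7 of 16 of groups 9 to 13 were lower, and both genes that rose belong to groups 9 to 13.

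HOXC4, a gene of the neck and upper trunk and one of the larger decreases, was at 38.9, 45.6 and 47.5 CPM in the 3 eGFP libraries and 25.1, 20.3 and 25.4 CPM in the condensed libraries, which did not overlap. Its log2 fold change was -0.90 ± 0.157 (SE, adjusted p = 0.000182). HOXA4 was low throughout, at 5.18, 7.06 and 5.54 CPM in eGFP and 3.18, 2.48 and 3.59 CPM in condensed libraries, again without overlap, and its log2 fold change was -0.95 ± 0.227 (SE, adjusted p = 0.00335). HOXA4 shares 47.8% of its exon bases with other genes, so its counts are uncertain.

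In cluster D the neighbours HOXD9 to HOXD11 and HOXD13 fell together, with HOXD12 between them too low to test well. HOXD10 and HOXD11 share 18.2% and 21.4% of their exon bases with each other on the same strand, so their counts may not be fully separate. HOXD10 was at 68.2, 69.7 and 72.6 CPM in eGFP and 42.9, 45.9 and 45.4 CPM in condensed libraries, and its log2 fold change was -0.65 ± 0.102 (SE, adjusted p = 5.93e-05). HOXD11, which with HOXA11 builds the forearm and the kidney, was at 33.4, 34.3 and 30.8 CPM against 18.8, 16.9 and 21.6 CPM, and its log2 fold change was -0.78 ± 0.179 (SE, adjusted p = 0.00223). The groups were clear of each other for both genes. HOXD9 was at 35.4, 27.8 and 31.6 CPM in eGFP and 20.3, 17.9 and 19.00 CPM in condensed libraries, and its log2 fold change was -0.73 ± 0.128 (SE, adjusted p = 0.000203). HOXD13, the gene with the highest level per kb in eGFP cells, was at 158, 172 and 173 CPM against 115, 119 and 129 CPM, a smaller change with a log2 fold change of -0.47 ± 0.0829 (SE, adjusted p = 0.000205). Every condensed library lay below every eGFP library for these genes too.

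HOXA13, the posterior end of cluster A and a gene of the hand, foot and urogenital tract, was at 38.9, 42.7 and 39.5 CPM in eGFP and 23.3, 26.9 and 31.3 CPM in condensed libraries, and its log2 fold change was -0.58 ± 0.107 (SE, adjusted p = 0.000323). In cluster B the best measured decrease was that of HOXB9, at 152, 172 and 187 CPM against 123, 128 and 126 CPM, whose log2 fold change was -0.44 ± 0.113 (SE, adjusted p = 0.00552). HOXB8, known from spinal cord and myeloid precursors, was at 39.2, 40.97 and 38.8 CPM against 26.8, 28.02 and 29.9 CPM with a log2 fold change of -0.49 ± 0.151 (SE, adjusted p = 0.0178). None of these groups overlapped. HOXB3 was at 40.2, 44.1 and 49.4 CPM in eGFP and 32.8, 32.4 and 29.6 CPM in condensed libraries, and its log2 fold change was -0.49 ± 0.123 (SE, adjusted p = 0.00447). HOXB5, used by neural crest of the gut, was at 13.4, 14.3 and 14.9 CPM against 9.62, 9.54 and 9.50 CPM, and its log2 fold change was -0.57 ± 0.18 (SE, adjusted p = 0.0214). HOXB13, a prostate gene, was at 25.8, 25.8 and 27.5 CPM against 20.5, 23.6 and 18.1 CPM, with a log2 fold change of -0.34 ± 0.117 (SE, adjusted p = 0.0329). These 3 were separated in every library, but the calls of HOXB5 and HOXB13 stood close to the threshold: each was lost when any of 5 of the 15 libraries was left out, all of them eGFP or condensed libraries, with adjusted p up to 0.0684 and 0.171. The call of HOXB8 was lost without condensed replicate 1 or eGFP replicate 2, with adjusted p up to 0.0676.

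HOXC12 and its neighbour HOXC11 moved the other way. HOXC12 was at 3.87, 3.30 and 3.56 CPM in eGFP libraries and 9.82, 12.8 and 11.7 CPM in condensed libraries, and its log2 fold change was 1.67 ± 0.216 (SE, adjusted p = 5.53e-06), the largest increase among HOX genes in this comparison. HOXC11 was at 31.1, 34.4 and 28.2 CPM against 44.6, 46.00 and 44.6 CPM, and its log2 fold change was 0.53 ± 0.162 (SE, adjusted p = 0.0179), a call lost without eGFP replicate 3 (adjusted p = 0.0782). Neither gene overlapped between the groups. The count of HOXC12 as a ratio to that of HOXC11 was 0.0959 to 0.126 in eGFP and 0.220 to 0.278 in condensed libraries, so within a library the reads shifted toward HOXC12. HOXC10 and HOXC13, on either side of the pair, were not called. HOXC10 was at 14.9, 14.8 and 15.2 CPM in eGFP and 17.1, 19.6 and 18.7 CPM in condensed libraries, and its log2 fold change was 0.30 ± 0.16 (SE, adjusted p = 0.169). Its groups did not overlap, and without no-mCherry DMSO replicate 3, a library of neither group, it was called higher. Of the 15 calls of this comparison 10 were kept whichever of the 15 libraries was left out.

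**Figure D3:**
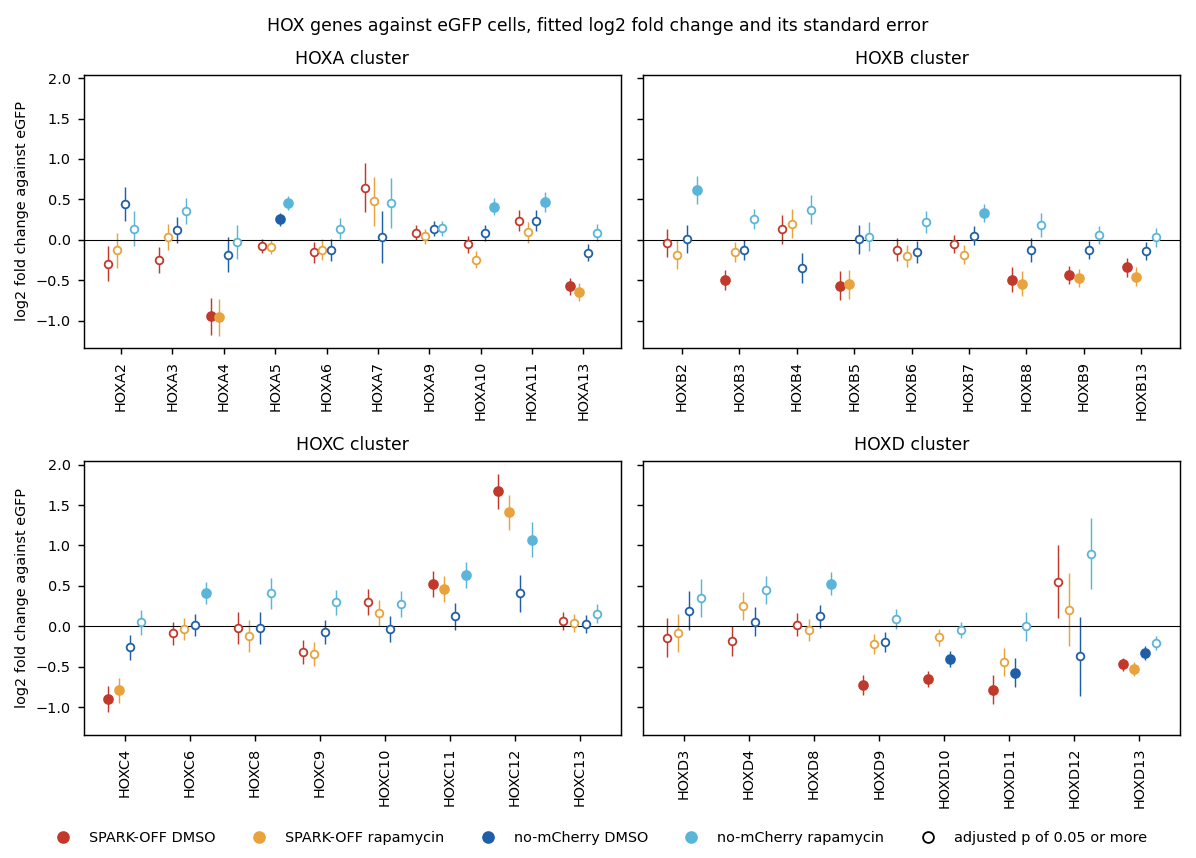
Log2 fold change of 35 tested HOX genes with the standard error for the 4 groups with the fusion against eGFP cells, by cluster and paralog group. Filled points had an adjusted p under 0.05. Of the genes drawn 12 were lower and 2 higher in condensed cells, and 8 lower and 2 higher in diffuse cells, with HOXC12 at 1.67 and 1.41.

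Cells with diffuse YAP-MAML2 were compared with the same eGFP libraries. In diffuse cells 9 HOX genes were lower (all genes 12.5%) and 2 were higher (all genes 11.4%), with a median log2 fold change of -0.13 against 0.0063 over all genes. In 16 HOX genes every diffuse library was below every eGFP library and in 2 above, against 20.4% and 20.2% of all genes. The genes that rose were again HOXC11 and HOXC12. Among those that fell were HOXA4, HOXA13, HOXB5, HOXB8, HOXB9, HOXB13, HOXC4 and HOXD13, each of which was also called lower in condensed cells. The 2 comparisons share their eGFP libraries and are not independent of each other.

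HOXC12 was at 11.1, 7.17 and 10.2 CPM in the diffuse libraries, all above eGFP, with a log2 fold change of 1.41 ± 0.217 (SE, adjusted p = 5.36e-05). HOXC11 was at 41.5, 43.97 and 43.9 CPM with a log2 fold change of 0.46 ± 0.162 (SE, adjusted p = 0.0393). HOXC4 was at 26.8, 24.4 and 24.96 CPM in diffuse libraries, close to its condensed level and below every eGFP library, with a log2 fold change of -0.79 ± 0.155 (SE, adjusted p = 0.000684). HOXA4 was at 2.94, 3.09 and 3.09 CPM with a log2 fold change of -0.96 ± 0.225 (SE, adjusted p = 0.00314). For HOXA13 the diffuse libraries were at 26.7, 25.1 and 25.7 CPM with a log2 fold change of -0.65 ± 0.106 (SE, adjusted p = 0.000114), and for HOXD13 at 116, 111 and 122 CPM with a log2 fold change of -0.53 ± 0.0828 (SE, adjusted p = 7.11e-05). All 4 were below the eGFP range in each library.

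The cluster B genes kept to the same side. HOXB9 was at 122, 127 and 119 CPM in diffuse libraries with a log2 fold change of -0.47 ± 0.112 (SE, adjusted p = 0.00386). HOXB8 was at 28.04, 27.8 and 25.9 CPM with a log2 fold change of -0.54 ± 0.15 (SE, adjusted p = 0.0108). HOXB13 was at 20.4, 18.2 and 18.8 CPM with a log2 fold change of -0.46 ± 0.117 (SE, adjusted p = 0.0061). HOXB5 was at 9.44, 9.07 and 10.4 CPM with a log2 fold change of -0.55 ± 0.179 (SE, adjusted p = 0.0267). Of the 11 calls, 8 were kept whichever library was left out. The call of HOXB5 was lost without any of 4 libraries (adjusted p up to 0.0944) and that of HOXC11 without any of 5 (up to 0.138), eGFP replicates 2 and 3 or 1 and 3 among them.

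HOXB3, HOXD9, HOXD10 and HOXD11 were called lower in condensed but not in diffuse cells. HOXB3 was at 38.1, 43.8 and 38.6 CPM in diffuse libraries and its log2 fold change was -0.15 ± 0.121 (SE, adjusted p = 0.402) against eGFP. HOXD9 was at 25.7, 29.5 and 26.03 CPM with a log2 fold change of -0.22 ± 0.125 (SE, adjusted p = 0.209). HOXD10 was at 66.03, 62.9 and 62.5 CPM with a log2 fold change of -0.14 ± 0.1 (SE, adjusted p = 0.345). HOXD11 was at 23.4, 23.5 and 25.6 CPM with a log2 fold change of -0.44 ± 0.175 (SE, adjusted p = 0.0714). The means of the 3 cluster D genes stood between their condensed and eGFP levels. For HOXD10 and HOXD11 every diffuse library was still below every eGFP library, while HOXB3 and HOXD9 overlapped. Without no-mCherry DMSO replicate 3, a library of neither group, HOXD11 was called lower in diffuse cells too. Whether condensed and diffuse cells differ is a question for the direct comparison.

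The effect of dissolving the condensates was tested by comparing diffuse with condensed cells of the same line, and 1 HOX gene was called. The MAML2 RNA level differs between these groups too (395 to 441 against 503 to 562 CPM). Within this line, dissolving therefore cannot be told apart in these RNA data from the level of fusion RNA or from rapamycin itself. For the protein, the paper reports no change on dissolution, by Western blot and by total fluorescence per cell. HOXD10 was higher in diffuse cells and none was lower, where 0.0381% of all genes were higher and 0.0924% lower. HOXD10 was at 42.9, 45.9 and 45.4 CPM in condensed libraries and 66.03, 62.9 and 62.5 CPM in diffuse libraries, which did not overlap, and its log2 fold change was 0.51 ± 0.101 (SE, adjusted p = 0.0342). With 7 genes called higher in the whole table, this call is near the limit of the test: it was lost when any 1 of the 6 SPARK-OFF libraries, no-mCherry rapamycin replicate 3 or eGFP replicate 2 was left out, with adjusted p up to 0.281, and with the replicate number as a block (adjusted p = 0.0649), while DESeq2 kept it (adjusted p = 0.000512). Its neighbour HOXD9 was at 20.3, 17.9 and 19.00 CPM in condensed and 25.7, 29.5 and 26.03 CPM in diffuse libraries, also without overlap, but it was not called, and its log2 fold change was 0.50 ± 0.128 (SE, adjusted p = 0.189). Without no-mCherry DMSO replicate 3, a library of neither group that enters through the shared estimate of spread, both HOXD9 and HOXD10 were called. HOXD11, with which HOXD10 shares 18.2% of its exon bases, had a log2 fold change of 0.34 ± 0.179 (SE, adjusted p = 0.947). HOXD13 had a log2 fold change of -0.06 ± 0.0828 (SE, adjusted p = 0.986).

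The ratio of HOXD10 to HOXD13 counts, which is free of library scaling, was 0.405 to 0.432 in eGFP libraries, 0.351 to 0.385 in condensed libraries and 0.511 to 0.568 in diffuse libraries, so these 3 groups did not overlap. In no-mCherry cells it was 0.355 to 0.445 with DMSO and 0.426 to 0.522 with rapamycin, and the latter range overlaps that of the diffuse libraries. Over the 36 genes the median was -0.03 on the log2 scale, with 14 values above 0, and the range was -0.34 to 0.51. In 6 genes every diffuse library was above every condensed one (all genes 6.19%) and in 2 below (all genes 6.56%). At an unadjusted p under 0.05, 4 HOX genes were higher (all genes 3.32%) and none lower (all genes 2.16%). The summed level of all 39 genes was 1042 ± 23.6 CPM in condensed and 1055 ± 20.9 CPM in diffuse cells (SD, n = 3), a difference within the spread, against 1250.2 ± 27.9 CPM in eGFP cells.

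**Figure D4:**
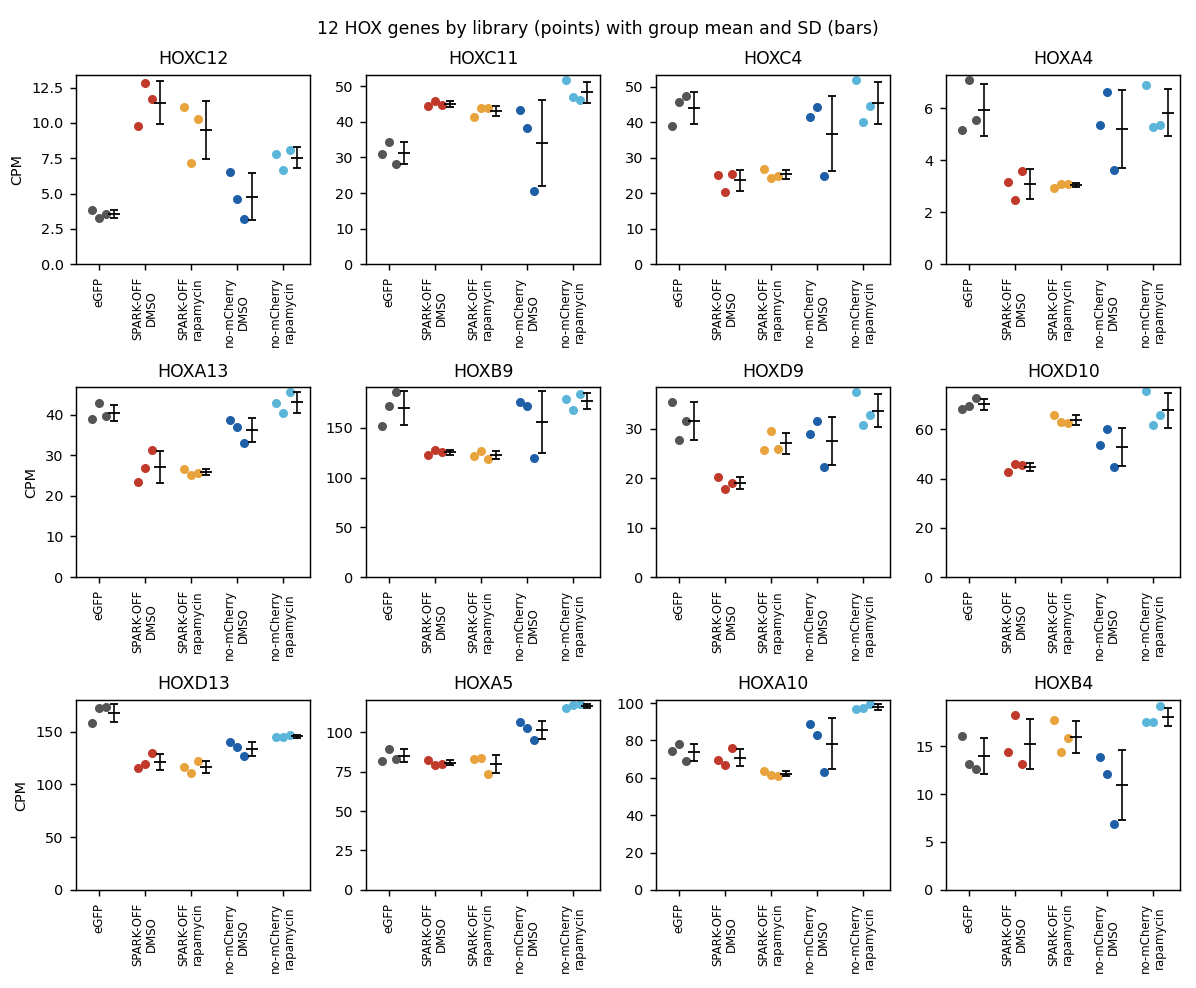
CPM in each of the 15 libraries for 12 HOX genes, with the mean and SD of each group beside them, and each axis starting at 0. HOXD10 was at 42.9 to 45.9 CPM in condensed and 62.5 to 66.0 CPM in diffuse libraries, while for HOXC4 these were 20.3 to 25.4 and 24.4 to 26.8 CPM.

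Rapamycin without dissolution was tested in the no-mCherry cells. HOXB4, used to expand blood stem cells, was the 1 HOX gene called higher with rapamycin, and none was called lower, where 0.451% of all genes were higher and 1.17% lower. HOXB4 was at 13.9, 12.1 and 6.89 CPM with DMSO and 17.5, 17.5 and 19.2 CPM with rapamycin, without overlap, and its log2 fold change was 0.73 ± 0.182 (SE, adjusted p = 0.0429). The lowest DMSO value is that of replicate 3, and without this library the log2 fold change was 0.48 with adjusted p = 0.124. The call was also lost without eGFP replicate 2, any of the 3 no-mCherry rapamycin libraries or 5 of the 6 SPARK-OFF libraries, with adjusted p up to 0.153.

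Beyond HOXB4 the shift in these cells was broad but not called gene by gene. Of the 36 genes, 35 were above 0 with rapamycin, the median log2 fold change was 0.30 against -0.0008 over all genes, and 19 genes had an unadjusted p under 0.05, all in that direction (all genes 6.63% higher and 8.23% lower). Every rapamycin library was above every DMSO library in 16 HOX genes (all genes 10%) and below in 1 (all genes 9.42%). Without no-mCherry DMSO replicate 3 no HOX gene was called, 9 had an unadjusted p under 0.05, all higher (all genes 5.15%), the median was 0.16 and 32 of 36 values were above 0. The rapamycin libraries then lay wholly above the other DMSO libraries in 16 HOX genes (all genes 15.8%) and below in 2 (all genes 16.3%), a background that is higher because fewer libraries are compared. HOXB2, which patterns the hindbrain, was at 17.8, 21.7 and 10.7 CPM with DMSO and 25.6, 25.8 and 24.96 CPM with rapamycin and had a log2 fold change of 0.61 ± 0.171 (SE, adjusted p = 0.0738). HOXA10, a gene of the uterus and of leukaemia, was at 88.9, 82.8 and 62.9 CPM against 96.95, 97.3 and 99.5 CPM with a log2 fold change of 0.33 ± 0.103 (SE, adjusted p = 0.119). HOXD10 was at 53.7, 60.02 and 44.9 CPM against 75.5, 61.8 and 66.04 CPM with a log2 fold change of 0.36 ± 0.101 (SE, adjusted p = 0.0756), so the one gene called on dissolution also had a positive value here and did not overlap. For HOXB2, HOXA10 and HOXD10 the log2 fold changes without DMSO replicate 3 were 0.36, 0.19 and 0.25, with adjusted p of 0.22, 0.351 and 0.224.

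Whether rapamycin acted differently in the 2 lines was tested as an interaction. No HOX gene passed in edgeR, where 0.0272% and 0.0707% of all genes were higher and lower. No HOX gene passed in DESeq2 either, where 56 genes were higher and 40 lower of 13872. At an unadjusted p under 0.05 in edgeR, no HOX gene was higher (all genes 3.71%) and 11 were lower (all genes 3.71%). The median interaction of the 36 genes was -0.26 on the log2 scale against 0.0158 over all genes, with 31 values below 0, that is with a smaller rapamycin difference in SPARK-OFF than in no-mCherry cells. Without no-mCherry DMSO replicate 3 the median was -0.13, and 2 genes were higher (all genes 4.89%) and 7 lower (all genes 4.13%) at an unadjusted p under 0.05. For HOXD10 the interaction was 0.16 ± 0.143 (SE, adjusted p = 0.857). For HOXB4 the interaction was -0.66 ± 0.254 (SE, adjusted p = 0.569). Leaving out no-mCherry DMSO replicate 3, the interactions of HOXD10 and HOXB4 were 0.26 and -0.41 (adjusted p = 0.53 and 0.548). A difference in rapamycin response between the lines was thus not shown for any single HOX gene.

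The no-mCherry cells, whose condensates rapamycin does not dissolve, were also set against eGFP cells. With DMSO, 1 HOX gene was higher (all genes 7.08%) and 3 were lower (all genes 6.41%). HOXA5 was at 82.03, 89.6 and 83.2 CPM in eGFP and 106, 102 and 95.00 CPM in no-mCherry DMSO libraries with a log2 fold change of 0.25 ± 0.0837 (SE, adjusted p = 0.0482). HOXD13 was at 139.8, 135 and 126 CPM in the DMSO libraries with a log2 fold change of -0.33 ± 0.0828 (SE, adjusted p = 0.0123). HOXD10 was at 53.7, 60.02 and 44.9 CPM with a log2 fold change of -0.41 ± 0.101 (SE, adjusted p = 0.0115). HOXD11 was at 28.4, 24.9 and 13.03 CPM with a log2 fold change of -0.57 ± 0.178 (SE, adjusted p = 0.0362). All 4 were clear of the eGFP range in each library. In all, 3 HOX genes lay wholly above and 4 wholly below the eGFP libraries, against 13.8% and 14.8% of all genes, and without DMSO replicate 3 these were 13 and 4, against 18% and 18.5%. None of the 4 calls was kept in all 15 fits with a library left out: the call of HOXA5 was lost in 13 of them (adjusted p up to 0.148), HOXD10 and HOXD11 were no longer called without replicate 3 of the DMSO group, HOXD13 was lost without eGFP replicate 2 or 3, and no HOX gene was called without eGFP replicate 3. Without no-mCherry DMSO replicate 3, HOXA5 and HOXC11 were higher and HOXD13 lower.

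With rapamycin the no-mCherry cells had 9 HOX genes higher than eGFP cells (all genes 7.62%) and none lower (all genes 8.79%). The median log2 fold change was 0.27 against 0.0097 over all genes, 32 of 36 values were above 0, and in 20 genes every library was above the eGFP range (all genes 17.3%), and in 1 below it (all genes 17.7%). The 9 were HOXA5, HOXA10, HOXA11, HOXB2, HOXB7, HOXC6, HOXC11, HOXC12 and HOXD8. HOXC12 was at 7.82, 6.67 and 8.08 CPM, above every eGFP library, with a log2 fold change of 1.07 ± 0.221 (SE, adjusted p = 0.00188). HOXC11 was at 51.7, 47.1 and 46.3 CPM with a log2 fold change of 0.63 ± 0.162 (SE, adjusted p = 0.00998). HOXA5 was at 115, 117 and 118 CPM, HOXA10 at 96.95, 97.3 and 99.5 CPM and HOXB2 at 25.6, 25.8 and 24.96 CPM. Each of these lay above its eGFP libraries. Their log2 fold changes were 0.46, 0.41 and 0.61 with adjusted p of 0.000673, 0.00888 and 0.0166.

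The other 4 genes that were higher in that comparison were HOXA11, HOXB7, HOXC6 and HOXD8. HOXA11 was at 28.1, 27.96 and 24.9 CPM in eGFP and 38.5, 38.4 and 35.01 CPM in no-mCherry rapamycin libraries, with a log2 fold change of 0.47 ± 0.128 (SE, adjusted p = 0.015). HOXC6, a thoracic gene, was at 32.5, 28.7 and 29.3 CPM against 41.4, 39.5 and 39.3 CPM with a log2 fold change of 0.41 ± 0.137 (SE, adjusted p = 0.043). HOXB7 was at 21.96, 22.01 and 19.97 CPM against 28.2, 27.1 and 25.1 CPM with a log2 fold change of 0.33 ± 0.112 (SE, adjusted p = 0.0466). HOXD8 was at 18.1, 12.5 and 14.9 CPM against 20.7, 24.4 and 20.4 CPM with a log2 fold change of 0.53 ± 0.139 (SE, adjusted p = 0.0115). None of these groups overlapped. The calls of HOXA5 and HOXC12 were kept whichever library was left out. The number of calls was 4 without no-mCherry rapamycin replicate 2, 5 without eGFP replicate 2, 4 without eGFP replicate 3, and 15 (14 higher and 1 lower) without no-mCherry DMSO replicate 3.

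The lines were then compared directly, SPARK-OFF against no-mCherry cells under the same treatment. Both carry the fusion, while its RNA level, mCherry and the cell line differ. With DMSO, 6 HOX genes were lower in SPARK-OFF cells (all genes 3.25%) and 1 was higher (all genes 3.78%), with a median of -0.17 against -0.0222 over all genes. In 5 genes every SPARK-OFF library was below (all genes 10.7%) and in 2 above (all genes 12.5%). HOXC12 was the gene that was higher, with a log2 fold change of 1.27 ± 0.209 (SE, adjusted p = 0.000488). HOXC4 was lower with a log2 fold change of -0.64 ± 0.157 (SE, adjusted p = 0.015), but its DMSO libraries in no-mCherry cells, at 41.4, 44.2 and 24.8 CPM, overlapped the condensed libraries through replicate 3. HOXA2, a gene of the hindbrain and the pharyngeal arches, was at 3.13, 3.31 and 3.40 CPM in condensed and 5.63, 5.59 and 5.20 CPM in no-mCherry DMSO libraries with a log2 fold change of -0.74 ± 0.214 (SE, adjusted p = 0.0366). HOXA4, HOXA5, HOXA13 and HOXD9 were lower by log2 fold changes of -0.76, -0.33, -0.41 and -0.53. Leaving out no-mCherry DMSO replicate 3, these were -0.97, -0.37, -0.48 and -0.67, with HOXA2 at -0.78, HOXC4 at -0.86 and HOXC12 at 1.05. Without no-mCherry DMSO replicate 3 the lower calls numbered 15, with HOXC12 still the 1 higher, the median was -0.30, and 23 genes lay wholly below (all genes 20%) and 2 above (all genes 19.6%). Only the call of HOXC12 was kept whichever library was left out, and the number of calls fell to 4, 1 and 3 without SPARK-OFF DMSO replicates 1, 2 and 3 and to 4 and 1 without no-mCherry DMSO replicates 1 and 2.

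The same comparison was made with rapamycin, where the state of the fusion differs too, diffuse in SPARK-OFF and condensed in no-mCherry cells. In SPARK-OFF cells 19 of 36 HOX genes were lower (all genes 6.88%) and none was higher (all genes 7.07%), the median was -0.43 against -0.0016 over all genes, and 34 values were below 0. In 27 genes every SPARK-OFF library was below every no-mCherry library (all genes 17.6%) and in none above (all genes 18.1%). The 19 were spread over the clusters, with 6 of 11 tested genes of A, 8 of 9 of B, 3 of 8 of C and 2 of 8 of D.

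HOXA13 was at 26.7, 25.1 and 25.7 CPM in SPARK-OFF and 42.9, 40.4 and 45.6 CPM in no-mCherry rapamycin libraries with a log2 fold change of -0.74 ± 0.106 (SE, adjusted p = 6.09e-05). HOXA10 was at 63.8, 61.5 and 61.1 CPM against 96.95, 97.3 and 99.5 CPM with a log2 fold change of -0.66 ± 0.103 (SE, adjusted p = 0.000174). HOXA5 was at 82.8, 83.4 and 73.3 CPM against 115, 117 and 118 CPM with a log2 fold change of -0.55 ± 0.0833 (SE, adjusted p = 0.000117). HOXC4 was at 26.8, 24.4 and 24.96 CPM against 51.9, 40.2 and 44.5 CPM with a log2 fold change of -0.84 ± 0.155 (SE, adjusted p = 0.000794). For each of these genes the lines were fully separated. HOXC9, which sets thoracic motor neuron identity, was at 29.5, 28.01 and 24.8 CPM against 44.98, 42.3 and 40.8 CPM with a log2 fold change of -0.64 ± 0.151 (SE, adjusted p = 0.00603). HOXB6 was at 37.9, 36.8 and 34.7 CPM against 54.2, 46.9 and 46.05 CPM with a log2 fold change of -0.43 ± 0.136 (SE, adjusted p = 0.038). HOXB2 was at 16.2, 13.4 and 14.4 CPM against 25.6, 25.8 and 24.96 CPM with a log2 fold change of -0.80 ± 0.17 (SE, adjusted p = 0.00293). HOXB8 was at 28.04, 27.8 and 25.9 CPM against 48.2, 41.95 and 44.6 CPM with a log2 fold change of -0.72 ± 0.149 (SE, adjusted p = 0.00222). These 4 were separated as well. The other 11 calls, among them HOXA11, HOXB3, HOXB5, HOXB7, HOXB9, HOXB13, HOXC6 and HOXD8, had log2 fold changes from -0.94 for HOXA4 to -0.32 for HOXD13. HOXC12, higher in SPARK-OFF cells with DMSO, had a log2 fold change of 0.34 ± 0.199 (SE, adjusted p = 0.284) here.

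Of the 19 calls 12 were kept whichever library was left out, and without no-mCherry DMSO replicate 3 there were 22, all lower. Among the 7 that were lost in some fit were HOXA11, HOXB3, HOXB5, HOXB6, HOXC6 and HOXD13, with adjusted p up to 0.258 for HOXA11, whose call was lost in 12 of the 15 fits, and 0.0658 for HOXD13 without SPARK-OFF rapamycin replicate 2. The DMSO and rapamycin comparisons of the lines share no library. Across the 36 HOX genes their log2 fold changes had Pearson's r = 0.554, with 30 of the same sign and 28 of these below 0, whereas over all 18391 genes r was 0.439 and 69.4% had the same sign. Leaving out no-mCherry DMSO replicate 3, these were 0.607, with 31 of the same sign and 29 of these below 0, against 0.435 and 69% over all genes. These are correlations across genes, which are not independent replicates, and the points share the 2 lines. Summed over the 39 genes, the level was 1178 ± 195 CPM in no-mCherry DMSO cells and 1418 ± 55.8 CPM in no-mCherry rapamycin cells (SD, n = 3).

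**Figure D5:**
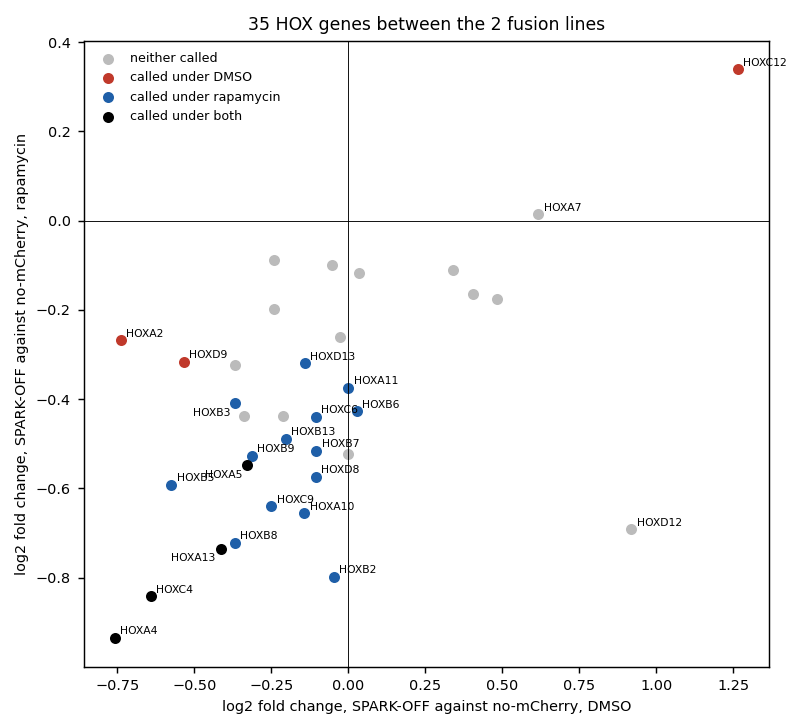
Log2 fold change of 35 tested HOX genes of the SPARK-OFF line against the no-mCherry line, under DMSO (x axis) and under rapamycin (y axis). Colours mark calls under DMSO, under rapamycin, under both or under neither. Of the 35 genes 27 lay below 0 on both axes, and HOXC12 lay at 1.27 with DMSO and 0.34 with rapamycin.

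The noncoding RNAs of the clusters, of which 17 of 18 listed passed the filter, gave 3 higher and 4 lower calls in condensed against eGFP cells (all genes 13% and 14.1%), with a median of -0.07. HOTAIR, transcribed from between HOXC12 and HOXC11, was at 11.2, 11.2 and 13.6 CPM in eGFP and 17.2, 17.9 and 16.6 CPM in condensed libraries, without overlap, and its log2 fold change was 0.53 ± 0.156 (SE, adjusted p = 0.0152). HOXC-AS1 had a log2 fold change of 0.69 ± 0.193 (SE, adjusted p = 0.0101). HOTTIP, beyond HOXA13, was at 0.374, 0.177 and 0.395 CPM against 1.73, 1.76 and 0.899 CPM, low in both, with a log2 fold change of 2.22 ± 0.473 (SE, adjusted p = 0.00114), while HOXA13 itself fell. HOTAIRM1, at the head end of cluster A, was at 9.48, 9.48 and 10.5 CPM against 5.58, 6.51 and 5.39 CPM with a log2 fold change of -0.75 ± 0.153 (SE, adjusted p = 0.000858). HOXD-AS2 and HAGLR of cluster D and the low-level HOXB-AS2 fell by 0.78, 0.42 and 1.52 on the log2 scale. These RNAs overlap HOX genes or lie close to them, so reads may be shared without strand.

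HOTAIR, HOXC-AS1 and HOTTIP were also higher in diffuse cells (log2 fold changes 0.61, 0.65 and 1.65) and in no-mCherry rapamycin cells (0.67, 0.93 and 2.18), all measured against the same eGFP libraries. Diffuse against eGFP gave 4 higher and 1 lower call among the 17 (all genes 11.4% and 12.5%), no-mCherry DMSO 0 and 2 (all genes 7.08% and 6.41%), and no-mCherry rapamycin 4 and 0 (all genes 7.62% and 8.79%). Between no-mCherry DMSO and eGFP cells none of the 17 was called without DMSO replicate 3. No noncoding RNA of the clusters was called between diffuse and condensed cells, with 2 at an unadjusted p under 0.05, both higher (all genes 3.32%).

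Of 13 tested genes flanking the clusters, 3 were higher and 3 lower in condensed cells than in eGFP cells, where 13% of all genes were higher and 14.1% lower. CALCOCO1, on the HOXC13 side of cluster C, was at 38.4, 45.2 and 31.9 CPM against 55.8, 55.4 and 59.1 CPM with a log2 fold change of 0.56 ± 0.115 (SE, adjusted p = 0.000957), and ATP5MC2, an ATP synthase subunit on the same side, at 444, 362 and 345 CPM against 329, 258 and 286 CPM with a log2 fold change of -0.40 ± 0.12 (SE, adjusted p = 0.0161). CALCOCO1 did not overlap and neither did ATP5MC2. EVX2, on the HOXD13 side of cluster D, and SKAP1, on the HOXB1 side of cluster B, were higher but low, with means of 0.866 ± 0.115 and 1.58 ± 0.264 CPM in condensed cells. HIBADH and SMUG1 fell by 0.35 and 0.33 on the log2 scale.

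A list of 10 genes held the TALE partners of HOX proteins and PBXIP1, which is not a TALE protein. Of these 10, 5 were lower (all genes 14.1%) and 1, PBXIP1, higher (all genes 13%) in condensed cells, with a median of -0.26 and 9 values below 0. PKNOX2, a PREP family member, was at 13.9, 17.4 and 15.3 CPM in eGFP and 6.69, 6.84 and 8.09 CPM in condensed libraries, without overlap, with a log2 fold change of -1.11 ± 0.196 (SE, adjusted p = 0.000203). MEIS2 had a log2 fold change of -0.63 ± 0.153 (SE, adjusted p = 0.00357), and PBX2 and MEIS3 were also lower. PBXIP1, which binds PBX factors and keeps them from DNA, was higher with a log2 fold change of 0.33 ± 0.0951 (SE, adjusted p = 0.0115). The same 6 genes were called in the same directions in diffuse cells, against the same eGFP libraries. PBXIP1 was the one gene of these lists with a called interaction: it was at 27.6, 24.7 and 26.8 CPM with DMSO and 45.6, 47.6 and 47.5 CPM with rapamycin in no-mCherry cells, against 34.6, 33.5 and 32.4 CPM and 35.6, 31.6 and 34.1 CPM in SPARK-OFF cells, and the interaction was -0.82 ± 0.132 (SE, adjusted p = 0.016), or -0.84 (adjusted p = 0.00413) without no-mCherry DMSO replicate 3.

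The regulators that hold HOX states moved in both directions. Of 31 Polycomb genes, 8 were higher and 5 lower in condensed than in eGFP cells, where 13% and 14.1% of all genes were called, with a median of 0.20: BMI1, PCGF5 and YAF2 of the PRC1 complexes rose by log2 fold changes of 0.66, 0.59 and 0.58, whereas PHC1, SCMH1 and CBX2, also of PRC1, had -0.61, -0.55 and -0.41. BMI1 was at 134, 121 and 109 CPM in eGFP and 216, 173 and 188 CPM in condensed libraries, without overlap. Of 19 genes of the Trithorax, H3K27 demethylase and insulator list, 2 were higher (all genes 13%, here DPY30 and RAD21, at 0.36 and 0.25) and 5 lower (all genes 14.1%), among them KDM6B, MLLT3 and DOT1L at -0.58, -0.49 and -0.46. In diffuse cells 6 Polycomb genes were higher and 5 lower, and 1 and 3 of the Trithorax list, where 11.4% and 12.5% of all genes were called.

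Retinoic acid and CDX factors switch HOX genes on in the embryo. Of 18 tested genes of that list, 8 were lower (all genes 14.1%) and 1 higher (all genes 13%) in condensed cells, with a median of -0.24. The retinoic acid receptor RARG was at 23.8, 26.2 and 27.2 CPM in eGFP and 16.03, 14.1 and 16.4 CPM in condensed libraries, without overlap, with a log2 fold change of -0.73 ± 0.128 (SE, adjusted p = 0.000196). RXRG and the retinoic acid carrier CRABP2 had -0.89 and -0.80, and RDH10, which makes retinal, was the gene that was higher, at 0.27. In diffuse cells 7 genes of the list were lower (all genes 12.5%) and none higher (all genes 11.4%). CYP26A1, which breaks down retinoic acid, was among these, at 6.86, 12.01 and 9.16 CPM in eGFP and 4.20, 4.34 and 4.47 CPM in diffuse libraries with a log2 fold change of -1.11 ± 0.214 (SE, adjusted p = 0.000621). Of 21 tested homeobox genes outside the HOX clusters, 1 was higher and 3 lower in condensed cells, near or below the 13% and 14.1% of all genes, the lower ones being EMX1 at -0.92, DLX1 at -0.75 and DLX2 at -0.63, and none was higher and 6 lower in diffuse cells, where 11.4% and 12.5% of all genes were.

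Between diffuse and condensed cells none of the 129 tested genes of these 7 lists was called, with 6 higher and 4 lower at an unadjusted p under 0.05 (all genes 3.32% and 2.16%).

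The study's own thresholds were applied to the fit used here, and not to the study's own results. They are an unadjusted P under 0.01, a log2 change of 0.58 or more either way and an FDR under 0.1. They called fewer HOX genes in most comparisons than the rule used above. Against eGFP cells they called 6 in condensed, 4 in diffuse, 0 in no-mCherry DMSO and 3 in no-mCherry rapamycin cells, where 13.2%, 11.6%, 5.87% and 7.47% of all genes were called. They called 0 between diffuse and condensed cells (all genes 0.152%), 2 between the no-mCherry treatments (all genes 0.821%) and 0 in the interaction (all genes 0.19%). Between the lines they called 4 with DMSO (all genes 4.51%) and 8 with rapamycin (all genes 5.58%).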

How the data were processed

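Counts per gene, whole numbers with no normalization, were deposited by the authors for all 15 libraries. Build hg38 and the tools FastQC, fastp, HTSeq and edgeR, with no version, come from the submitters' processing notes, and fastp and STAR from the paper's methods. How strand was treated in counting, and with which annotation, is not given in the sources used here. No processed column of another sample was present.

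Names and positions came from GENCODE v44 and promoter sequences from RefSeq (GRCh38.p14). The tests were run in edgeR 4.0.16 under R 4.3.3 (with limma 3.58.1). Genes were kept by filterByExpr over the 5 groups (18391 of 61533), libraries were scaled by TMM (factors 0.901 to 1.05), and 1 quasi-likelihood fit over the 15 libraries gave all 9 comparisons, so that the groups share an estimate of spread. A call is an adjusted p under 0.05, with Benjamini-Hochberg adjustment over all genes tested. CPM use the scaled library sizes, values after ± are the SD of 3 libraries unless marked SE, and standard errors are those of the fitted coefficients (Wald). The precision is limited by 3 libraries a group and a common biological coefficient of variation of 0.111. The scripts were tested on simulated counts with known changes.

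The members and the gene lists were chosen with earlier results of these data known, so no list is independent evidence. HOX genes were given library by library where a group mean reached 1 CPM and at least 1 comparison was called. Of each other list at most 3 higher and 3 lower genes with the largest called changes were named per comparison with eGFP, and noncoding RNAs and flanking genes without that limit. Some genes that this rule names are not reported here and are left out of the plots, while the counts, medians and sums over a list include them. A few genes outside this rule (PBX2, MEIS3 and the interaction of PBXIP1) were named after their values were seen. Alternatives were DESeq2 1.42.0, RLE size factors, no low-count filter, the replicate number as a block, only the groups compared in the fit, the paper's thresholds (P under 0.01, absolute log2 fold change of at least 0.58, FDR under 0.1), and leaving out each library.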

Additional observations from a re-analysis of the deposited data

Results flagged for a closer look

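For HOXA10 and HOXC11 the rapamycin libraries lay wholly below the DMSO libraries in SPARK-OFF cells and wholly above them in no-mCherry cells, although neither gene was called for rapamycin in either line and the interactions did not pass. Of all genes 6.56% lay wholly below in SPARK-OFF cells and 10% wholly above in no-mCherry cells. The share of all genes with both was not counted. HOXA10 was at 69.4, 67.0 and 75.9 CPM in SPARK-OFF cells with DMSO and 63.8, 61.5 and 61.1 CPM with rapamycin, and at 88.9, 82.8 and 62.9 CPM against 97.0, 97.3 and 99.5 CPM in no-mCherry cells. The difference between the lines, tested as the interaction in edgeR's quasi-likelihood fit, was -0.51 on the log2 scale (adjusted p = 0.274), which does not pass. HOXC11 was at 44.6, 46.0 and 44.6 CPM with DMSO and 41.5, 43.97 and 43.9 CPM with rapamycin in SPARK-OFF cells, and at 43.4, 38.3 and 20.5 CPM against 51.7, 47.1 and 46.3 CPM in no-mCherry cells. Its interaction was -0.57 (adjusted p = 0.576). The lowest no-mCherry DMSO value of both genes is that of replicate 3, the library that was lowest of its group in 35 of 36 HOX genes, and its part in these differences was measured by leaving it out: the interactions were then -0.38 and -0.31.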

How the results depend on the processing

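The number of HOX genes called is given in the order condensed against eGFP (15), diffuse against eGFP (11), diffuse against condensed (1), no-mCherry rapamycin against DMSO (1), the interaction (0), no-mCherry DMSO against eGFP (4), no-mCherry rapamycin against eGFP (9), SPARK-OFF against no-mCherry with DMSO (7) and with rapamycin (19). Under the paper's thresholds these were 6, 4, 0, 2, 0, 0, 3, 4 and 8. Without a low-count filter, diffuse against condensed gave 2, no-mCherry rapamycin against DMSO 4 and SPARK-OFF against no-mCherry with DMSO 12. With only the groups compared in the fit, diffuse against condensed gave 2, no-mCherry rapamycin against DMSO 0, no-mCherry DMSO against eGFP 0 and SPARK-OFF against no-mCherry with DMSO 1. DESeq2 gave 3 for no-mCherry rapamycin against DMSO. With each library left out in turn the ranges were 11 to 17, 8 to 14, 0 to 2, 0 to 4, 0 to 0, 0 to 4, 4 to 15, 1 to 16 and 13 to 22. The causes were not tested. The 67 single gene results kept their sign in all 1407 alternatives, and 33 were called in all 15 fits with a library left out. These results were chosen by their calls in the same counts, so a kept sign is no independent support. The alternatives with the paper's thresholds repeat the main fold change and could not change sign.

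Same-numbered libraries of different groups did not deviate together (30 pairs, correlations of -0.206 to 0.168, 6 over 0.1), so the numbers do not pair the samples. With the replicate number as a block, diffuse against condensed gave 0 calls, no-mCherry DMSO against eGFP 3, SPARK-OFF against no-mCherry with DMSO 5 and with rapamycin 18.

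With 3 libraries a group, genes near 1 CPM such as HOXD12 and HOTTIP have wide errors, and HOXB1, HOXC5 and HOXD1 could not be tested. Fusion RNA level, mCherry and cell line cannot be told apart between the lines, nor, with rapamycin, can the condensed or diffuse state.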
